A study of Mus musculus with 12 samples.

Results

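A group of 10 immediate early genes, the AP-1 and EGR transcription factor genes together with Ier2, was followed in H3K27ac chromatin of mouse forebrain microglia. The members were Fos, Fosb, Jun, Junb, Jund, Atf3, Egr1, Egr2, Egr3 and Ier2. A window belonged to a member when the deposited annotation named that gene and placed the window within 100 kb of its transcription start site. This gave 171 windows of 1000 bp for 10 genes, out of 63387 windows and 15879 genes at that distance; with no distance limit the members had 196 of 67822 windows. The members carried a median of 16 windows per gene, against 2 for all genes.

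Immediate early genes are transcribed within minutes of a stimulus, without new protein synthesis. The Fos and Jun families form the dimers of activator protein 1 (AP-1), and the EGR factors are zinc-finger proteins that bind GC-rich sites. In macrophages and microglia AP-1 works beside lineage factors at enhancers, and enzymatic dissociation of brain tissue is a known trigger of these genes. H3K27ac, acetylation of lysine 27 of histone H3, marks active promoters and enhancers; it is a chromatin state and not a transcript level.

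The study set Nlrp3-/- mice, the Cias1-knockout line from Millennium Pharmaceuticals (KO), against wild-type mice of the C57BL/6N background (WT). Nlrp3 encodes the sensor of an inflammasome. Each genotype had 3 H3K27ac and 3 input libraries, made from CD11b-selected cells of dissociated forebrain. The selection antigen is shared by other myeloid cells, and every library came from cells that had been dissociated. The labels state neither age nor sex nor how many animals went into a library, so p-values measure the spread between these libraries, which may be technical. H3K27ac libraries held 4531757 to 5028129 tags in KO and 3726550 to 4492763 in WT, and 39.1% to 46.1% of them lay in windows. Of 2 windows at annotated Nlrp3 starts, one had 1, 0 and 16 tags in KO and 180, 180 and 195 in WT, and the other had 17, 20 and 43 tags in KO and 138, 91 and 119 in WT. WT replicate 1 stood apart in another way: at 3 Y-chromosome promoters (Eif2s3y, Uty and Ddx3y) it had 0 H3K27ac tags, where the other 5 libraries had 183 to 239. The input library of WT replicate 1 also had 0 tags there, where the other 5 inputs had 2 to 13.

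Promoter sequences are shown for 4 members whose start lies inside an acetylated window, because they carry short motifs of the factors the family itself encodes or responds to. Each is the 250 bases before the RefSeq start (GRCm38.p6, the mm10 assembly), written 5′ to 3′ on the strand of the gene. Capitals mark matches to TGACG, the core of the site for CREB and ATF proteins, or to TGACNTCA, its full-length relative, on either strand.
Fos, chr12:85473640-85473889, plus strand: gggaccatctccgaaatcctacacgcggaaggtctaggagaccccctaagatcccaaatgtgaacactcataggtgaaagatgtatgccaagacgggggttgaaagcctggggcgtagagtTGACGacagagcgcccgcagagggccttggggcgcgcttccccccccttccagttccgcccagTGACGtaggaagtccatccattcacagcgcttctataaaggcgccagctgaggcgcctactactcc
Jun, chr4:95052223-95052472, minus strand: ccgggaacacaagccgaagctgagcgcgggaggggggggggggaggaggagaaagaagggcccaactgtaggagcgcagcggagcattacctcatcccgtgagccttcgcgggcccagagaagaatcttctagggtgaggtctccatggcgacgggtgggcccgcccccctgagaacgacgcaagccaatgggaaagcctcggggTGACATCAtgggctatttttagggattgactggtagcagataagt
Junb, chr8:84978749-84978998, minus strand: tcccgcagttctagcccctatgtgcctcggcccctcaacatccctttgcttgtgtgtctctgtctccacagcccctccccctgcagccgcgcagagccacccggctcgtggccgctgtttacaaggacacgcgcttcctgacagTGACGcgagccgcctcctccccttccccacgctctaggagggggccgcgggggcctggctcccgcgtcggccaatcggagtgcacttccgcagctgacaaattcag
Atf3, chr1:191183334-191183583, minus strand: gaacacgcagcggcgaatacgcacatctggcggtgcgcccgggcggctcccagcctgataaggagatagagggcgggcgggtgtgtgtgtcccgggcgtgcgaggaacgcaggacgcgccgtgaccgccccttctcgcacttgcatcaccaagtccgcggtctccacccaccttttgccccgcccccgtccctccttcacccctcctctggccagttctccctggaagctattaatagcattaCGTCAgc
Egr2, chr10:67537792-67537821, plus strand, 30 bases around a CArG box in capitals (CCATATATGG, the kind of site bound by serum response factor): tcagtCCATATATGGgcagcgacgtcacgg

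Fos held TGACG starting 129 and 66 bases before its start, Junb 106 bases before, Fosb 60 bases before, and Atf3 had it 7 bases before on the opposite strand. Egr2 held it 111 bases before one of its RefSeq starts and, on the opposite strand, 55 bases before; the second match lies in the printed stretch, in lower case. Jun had TGACATCA starting 45 bases before its start. Of 32817 RefSeq promoters of the same length, 17.7% held TGACG, 7.49% TGACNTCA and 1.47% a CArG box. Further motifs were searched on both strands. TGANTCA, the classical AP-1 site, was found in 6.75% of promoters and in none of the 7 members that could be searched. GCGNGGGCG, an EGR-type site, was found in 4.7% and in Fosb. TGACG and TGACNTCA can overlap. Of the 10 members, 7 had an entry in the RefSeq promoter table, and Egr1, Egr3 and Ier2 had none and were not searched. Jund held none of the motifs. Egr2 was searched at 5 starts, so its matches do not compare directly with a share per promoter. These matches describe the letters only, and say nothing of which protein was bound.

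Acetylation was laid out differently around the members. By the mean of the 6 libraries, and by the KO mean, the strongest window lay over 1 kb from the start in 7 of 10 and within 1 kb in 3 (Fosb, Jun and Egr2). By the mean of the 6 libraries, the strongest windows of Jund (1023 bp) and Ier2 (1207 bp) lay just past that limit. By the WT mean the split was 6 and 4, since the strongest Ier2 window in WT was centred 388 bp into the gene. Of the 171 windows, 22 were promoter windows, here those centred within 1 kb of a start, and 149 were distal. In all, 24 windows (14.0%) exceeded percentile 95 of all windows of their kind: 8 of Junb, 4 each of Jun and Atf3, 3 of Fos, 2 each of Egr1 and Jund, and 1 of Egr2. Fosb, Egr3 and Ier2 had none. At the other end, 81 windows lay below the median of their kind. Windows overlap in places (88 overlapped the one before them), so neighbouring windows share tags.

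**Figure D1:**
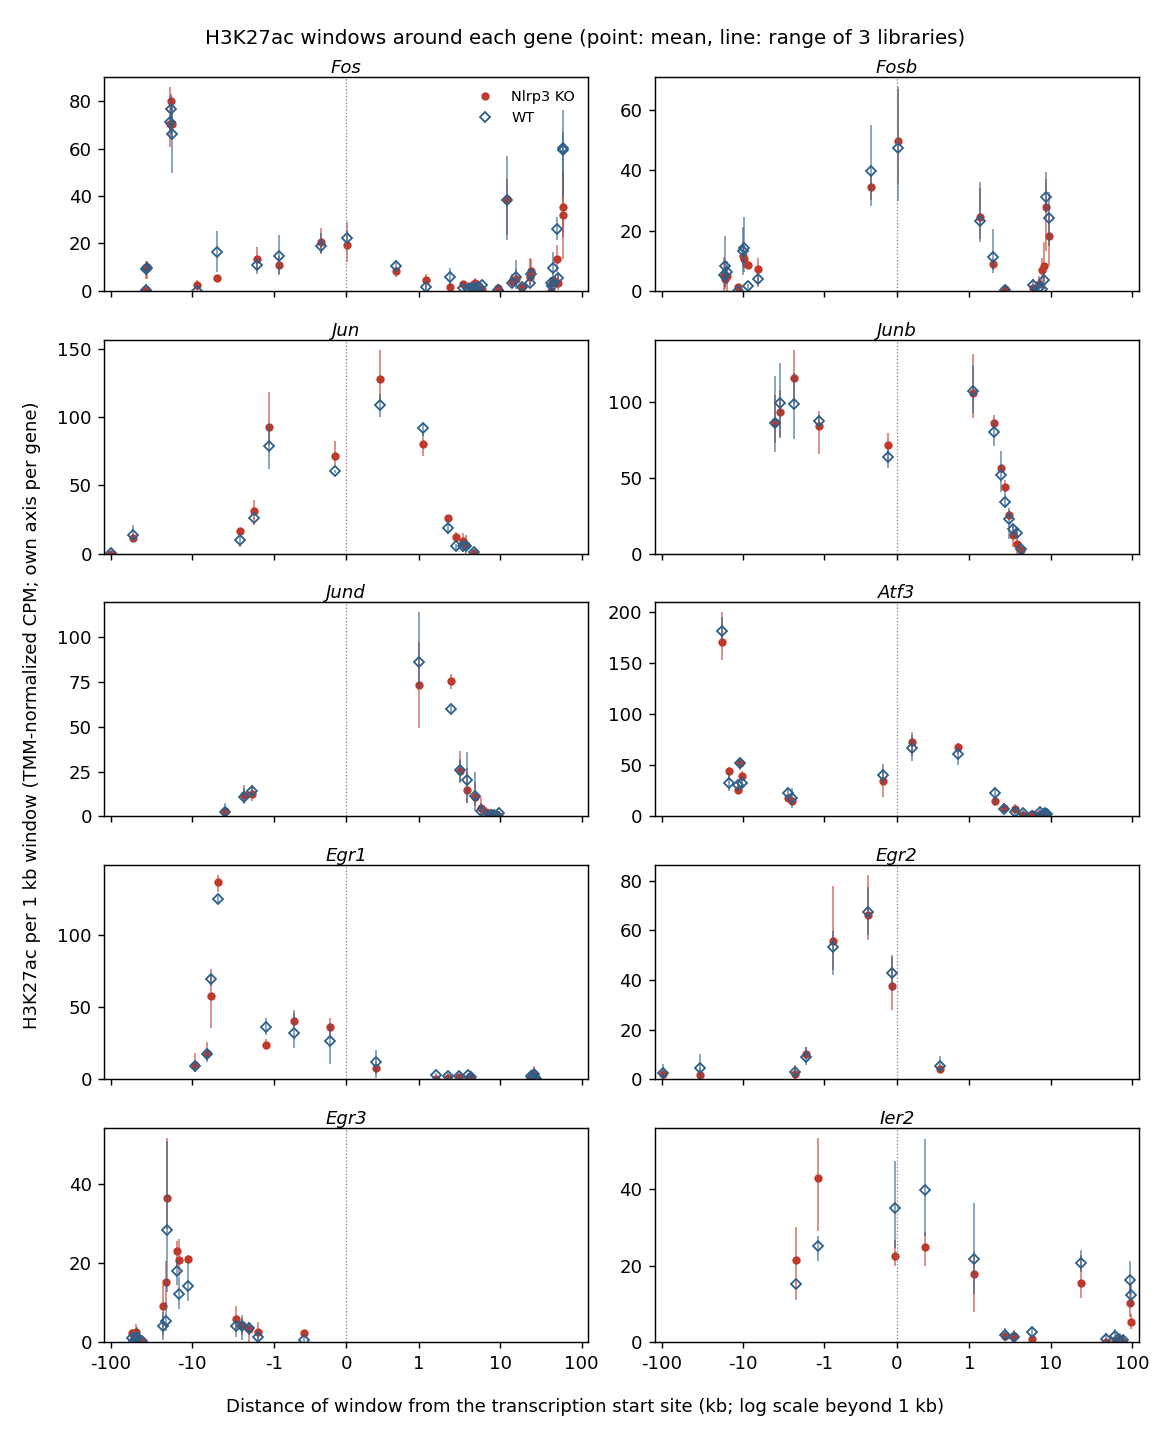
H3K27ac in each 1 kb window (TMM-normalized CPM, own axis per gene) against its distance from the start (kb, log scale beyond 1 kb), for KO (filled circles) and WT (open diamonds); points are means and lines the range of 3 libraries. The highest windows lie about 18 kb upstream of Atf3 and Fos, on the gene and upstream of it in Jun and Junb, and about 20 kb upstream of Egr3, whose start window is close to 0.

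Fos, the AP-1 subunit that cannot pair with itself and needs a Jun partner, had most of its acetylation away from its start. Levels are CPM, tags scaled to library size with TMM factors, per window, and higher than on a scale of all tags of a library. The strongest window was centred 18432 bp upstream (chromosome 12, 85454958 to 85455958), with 75.7, 82.4 and 82.2 CPM in KO and 80.9, 83.3 and 65.8 CPM in WT. The window at the Fos start itself, centred 8 bp from it, had 12.04, 17.5 and 28.9 CPM in KO and 25.7, 21.3 and 20.1 CPM in WT. The upstream window thus stood above the start in every library of both genotypes, by 4.11 times in the KO means and 3.43 times in the WT means. The Fos start ranked at percentile 61.7 of promoter windows and the upstream window at percentile 98.4 of distal windows. Further clusters lay downstream: a window 12115 bp away averaged 38.8 ± 13.2 CPM in KO and 38.3 ± 17.8 CPM in WT (SD, n = 3 each), and a pair centred 58782 and 59423 bp away stood above it in WT. The next protein-coding gene on that side is Jdp2, which encodes a repressor that dimerizes with Jun proteins, 121 kb beyond the end of Fos.

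Fosb, a close relative of Fos, was strongest at its start. Its window 20 bp from the start had 46.1, 35.5 and 67.8 CPM in KO and 45.2, 29.9 and 66.9 CPM in WT, so the libraries of a genotype spread widely and the groups overlapped. A second cluster lay past the gene end, 8752 bp downstream, with 27.9 ± 12.8 CPM in KO and 31.2 ± 7.35 CPM in WT. Rtn2, the neighbour on that side, lies 6.53 kb from Fosb.

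Jun, the AP-1 subunit that can pair with itself and with Fos, was acetylated across its single-exon gene and upstream of it. The window 463 bp into the gene, annotated as 5′ UTR, had 122, 113 and 149 CPM in KO and 100, 117 and 110 CPM in WT. It ranked at percentile 99.6 of promoter windows. Acetylation stayed high 1162 bp upstream (93.0 ± 22.03 CPM in KO, 78.6 ± 16.4 CPM in WT) and 1127 bp downstream (80.6 ± 8.50 CPM in KO, 91.7 ± 4.84 CPM in WT). The windows at the 3′ end were lower. At 2297 bp downstream, in the 3′ UTR, the level was 25.8 ± 0.446 CPM in KO and 18.7 ± 5.22 CPM in WT. At 2859 bp it was 12.3 ± 3.51 CPM in KO and 5.34 ± 2.23 CPM in WT. A window 53916 bp upstream stood at 11.4 ± 2.77 CPM in KO and 13.8 ± 6.12 CPM in WT.

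Junb, a Jun relative that often restrains Jun activity, was strongly acetylated on both sides of its start. From 4009 bp upstream to 2035 bp downstream all 7 windows averaged between 71.9 and 116 CPM in KO and between 63.6 and 107 CPM in WT. The highest in KO and by the mean of the 6 libraries was centred 2389 bp upstream (chromosome 8, 84980637 to 84981637), with 115, 135 and 98.9 CPM in KO and 119, 103 and 75.8 CPM in WT. In WT the highest was 1111 bp downstream, at 106 ± 22.96 CPM in KO and 107 ± 16.2 CPM in WT. The start window, centred 118 bp upstream, was the lowest of these 7 in both genotypes. Past the gene the level dropped steadily towards the end of Prdx2, a peroxiredoxin gene that lies 2.1 kb away. The annotation places 4 of the 13 windows named for Junb at the transcript end or 3′ UTR of Prdx2. Some of these lie wholly or partly outside that gene.

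Jund, the Jun member expressed most constantly across tissues, had no window within 1 kb of its annotated start. The nearest was centred 1023 bp downstream in the annotated 5′ UTR, with 73.2, 49.3 and 97.2 CPM in KO and 71.5, 73.5 and 114 CPM in WT. A window 2475 bp downstream, in the 3′ UTR, had 71.2, 79.2 and 76.7 CPM in KO and 57.7, 60.3 and 61.3 CPM in WT. The KO libraries lay above all WT libraries in the second window and overlapped them in the first. The gene Iqcn lies 0.705 kb beyond Jund, and the windows past the end of Jund, annotated as intergenic, were lower: 14.7 CPM in KO and 20.1 CPM in WT at 3956 bp downstream.

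Atf3, a stress-induced factor that pairs with Jun proteins and often represses, carried the single highest window of the set. It was centred 18018 bp upstream (chromosome 1, 191200851 to 191201851, intergenic), with 200, 161 and 153 CPM in KO and 195, 173 and 176 CPM in WT. The groups overlapped, and the window ranked at percentile 99.97 of distal windows. It held 29.5% of all Atf3 tags in KO and 30.8% in WT. The start window, centred 192 bp upstream, averaged 34.9 ± 13.5 CPM in KO and 40.2 ± 9.91 CPM in WT, while 207 bp into the gene the level was 72.8 ± 12.1 CPM in KO and 67.2 ± 12.6 CPM in WT. Between these lay a cluster about 10.9 kb upstream, at 52.4 ± 1.37 CPM in KO and 52.0 ± 5.84 CPM in WT.

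Egr1, the best-studied zinc-finger immediate early factor, was strongest 4810 bp upstream. That window had 140, 142 and 130 CPM in KO and 122, 125 and 129 CPM in WT, percentile 99.85 of distal windows. It took 39.8% of Egr1 tags in KO and 36.2% in WT. The start window, centred 229 bp upstream, had 29.6, 42.8 and 37.2 CPM in KO and 38.9, 10.3 and 29.6 CPM in WT. Acetylation was low over the body of Egr1. In its first exon, 407 bp from the start, the level was 12.5, 7.37 and 3.33 CPM in KO and 15.1, 0.574 and 20.1 CPM in WT. At 1644 bp, in its second exon, it was 0.502, 0 and 0.556 CPM in KO and 4.39, 2.87 and 2.23 CPM in WT.

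Egr2, which in myeloid cells is induced by cytokines and growth factors, was the member with the largest promoter part. Its promoter windows took 90.7% of its tags in KO and 90.0% in WT. The strongest, centred 401 bp upstream, had 82.3, 56.2 and 60.6 CPM in KO and 58.3, 77.5 and 66.9 CPM in WT. The CArG box printed above lies in this window and also in the overlapping one centred 67 bp upstream. That window was lower, at 37.6 ± 10.8 CPM in KO and 43.0 ± 7.21 CPM in WT. The only distal window of Egr2 to be tested, 1695 bp upstream, stood at 10.0 ± 2.61 CPM in KO and 9.03 ± 3.61 CPM in WT.

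Egr3, an EGR relative known from neurons and lymphocytes, was the opposite case. Its start window, centred 588 bp upstream, had 2.01, 2.30 and 2.78 CPM in KO and 0, 0 and 1.12 CPM in WT, percentile 7.41 of promoter windows. It was too low to be tested. The strongest window lay 20307 bp upstream, in an intron of Pebp4 (chromosome 14, 70056638 to 70057638), with 28.6, 51.6 and 29.4 CPM in KO and 50.8, 12.6 and 21.7 CPM in WT. In all, 8 of the 16 windows named for Egr3 lie inside Pebp4, which encodes a phosphatidylethanolamine-binding protein. The annotation gives each window to the nearest start, so these windows are near Egr3 and are not shown to act on it.

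Ier2, a nuclear immediate early protein outside both families, had moderate acetylation on both sides of its start. The window 31 bp upstream had 21.1, 19.8 and 26.7 CPM in KO and 24.5, 33.3 and 47.4 CPM in WT. The one 388 bp into the gene, which was the strongest Ier2 window in WT, had 26.1, 19.8 and 28.9 CPM in KO and 27.6, 39.1 and 53.0 CPM in WT, a log2 fold change of −0.68 (SE 0.33, unadjusted p = 0.0503, edgeR adjusted p = 0.998). The one 1207 bp upstream, which was the strongest in KO, had 46.1, 29.01 and 53.3 CPM in KO and 27.6, 21.3 and 26.8 CPM in WT. The groups overlapped in the first 2 of these windows, where the KO mean was the lower one, and did not overlap upstream, where all KO libraries lay above WT. None of the 3 was called by edgeR. Of the 16 windows named for Ier2, 8 lie in Cacna1a, a neuronal calcium channel gene.

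Per window, and so per equal length, the mean level placed the members in this order: Junb (60.9 ± 3.59 CPM in KO, 58.9 ± 3.73 CPM in WT), Jun (37.4 ± 3.88, 32.8 ± 2.64), Atf3 (30.5 ± 1.57, 30.997 ± 1.29), Egr2 (22.5 ± 5.35, 23.6 ± 4.10), Egr1 (19.1 ± 0.352, 19.2 ± 2.46), Jund (17.05 ± 2.32, 17.05 ± 3.92), Fos (14.2 ± 1.41, 16.2 ± 0.965), Fosb (12.4 ± 0.754, 12.5 ± 4.34), Ier2 (10.4 ± 1.95, 12.2 ± 2.22) and Egr3 (9.40 ± 0.495, 6.16 ± 2.53), each KO then WT with the SD over 3 libraries. The ranges of Junb and Jun did not overlap in either genotype, and neither did those of Atf3 and Egr2. Jun lay above Atf3 in KO and overlapped it in WT. From Egr2 to Egr1 to Jund to Fos the neighbours overlapped in both genotypes. Fos and Fosb were apart in KO and overlapped in WT, Fosb and Ier2 overlapped in both, and Ier2 and Egr3 overlapped in KO and were apart in WT. These means count tags shared by overlapping windows more than once.

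Against input chromatin, nearly every tested window of the members was enriched. In KO 83 of 84 tested windows were above input, and in WT 80 of 80, with edgeR's quasi-likelihood test, library totals as sizes and a Benjamini-Hochberg adjusted p under 0.05. Of all windows tested, 99% passed in KO and 98.6% in WT, so the members' share is the general one. The low-tag filter keeps a window for being high in H3K27ac, which fixes most of this direction. The exception in KO lay in an Atf3 intron, and 75 member windows were above input in both genotypes.

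**Figure D2:**
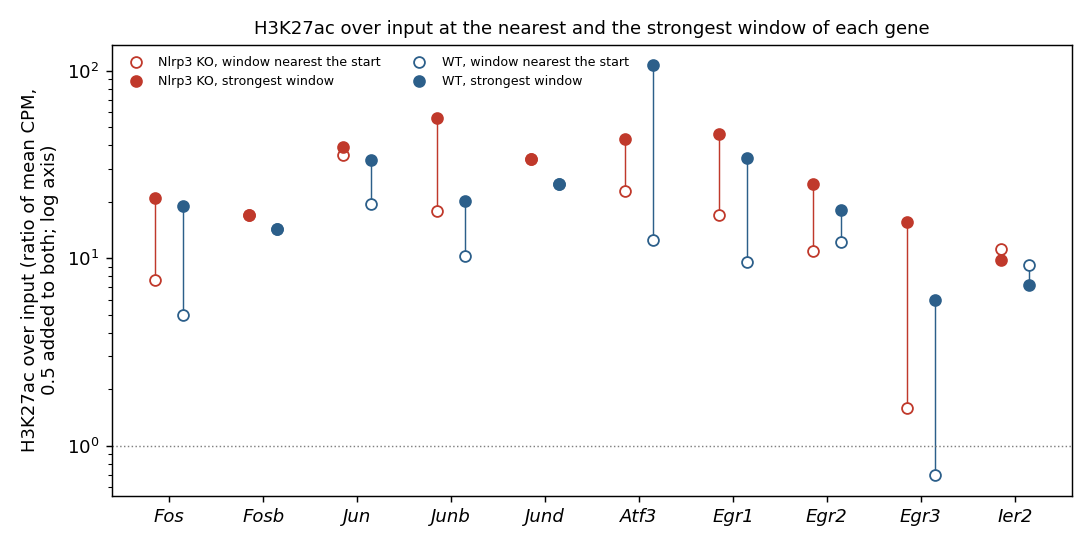
H3K27ac over input (ratio of mean CPM on all tags of a library, 0.5 added to both, log axis) at the window nearest the start (open circles) and the strongest window by the mean of 6 libraries (filled circles) of each gene, KO left of WT. The dotted line marks equality with input; the start of Egr3 lies at 1.60 in KO and 0.698 in WT, and every other point is above 4 in both genotypes.

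As a ratio to input, on a scale of all tags with 0.5 CPM added, the strongest windows stood at 43.1 in KO and 107 in WT for Atf3. The WT ratio rests on inputs of 1, 2 and 0 tags, against 4, 5 and 6 in the KO inputs, so it is poorly fixed. Junb reached 56.1 in KO and 20.3 in WT, Egr1 45.7 in KO and 34.3 in WT, and Jun 39.1 in KO and 33.3 in WT. The Junb ratios rest on inputs of 4, 1 and 1 tags in KO and 9, 6 and 5 in WT, so their difference is poorly fixed too. The H3K27ac level of that Junb window was 116 CPM in KO and 99.3 CPM in WT. The Egr1 and Jun ratios also rest on single-digit input tags. The Fos start stood at 7.61 in KO and 5.01 in WT. No test compared these ratios between genotypes.

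The comparison of KO with WT asked whether loss of Nlrp3 goes with another level of H3K27ac at these loci. Per gene, with tags summed over all windows within 100 kb, none of the 10 members was called by edgeR's quasi-likelihood test (adjusted p under 0.05), where 0.206% of the 12148 genes tested were called. One member, Egr3, had an unadjusted p under 0.05, against 5.77% of all genes, and DESeq2 called none of the 10 (0.313% of all genes) and gave 1 unadjusted p under 0.05 (5.7% of all genes). Adjusted p-values of the members lay between 0.645 and 1.00. In all 10 the libraries of the 2 genotypes overlapped, whereas 11.4% of all genes had groups that did not. The members' median log2 fold change was −0.0080, against 0.0013 over all genes.

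**Figure D3:**
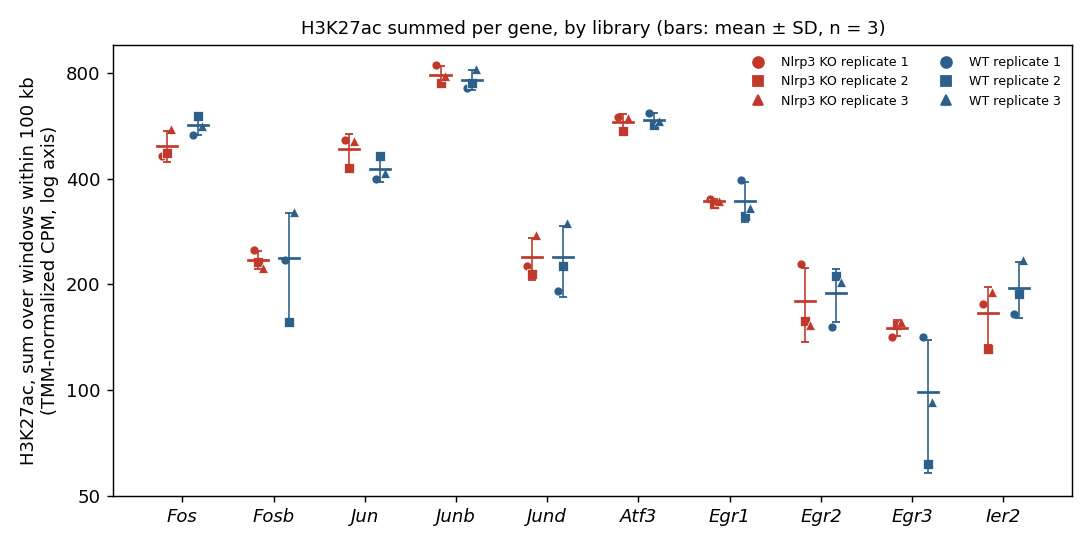
H3K27ac summed over the windows of each gene (TMM-normalized CPM, log axis), one symbol per library, with mean and SD of 3 libraries, KO left of WT. The groups overlap in all 10 genes; Egr3 is the member with the widest gap, where WT replicate 1 (142 CPM) sits at the level of the KO libraries (141 to 157 CPM).

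Among the Fos and Jun genes the sums differed little. Fos summed to 465, 472 and 554 CPM in KO and 535, 602 and 565 CPM in WT, a log2 fold change of −0.19 (SE 0.11). Only the KO library with 554 CPM reached the WT range. Jun summed to 517, 428 and 513 CPM in KO and 400, 465 and 415 CPM in WT, a log2 fold change of 0.19 (SE 0.11) that became −0.0094 when overlapping windows were left out. Junb stood at 792 ± 46.7 CPM in KO and 766 ± 48.5 CPM in WT, with a log2 fold change of 0.05 (SE 0.09). Fosb averaged 235 ± 14.3 CPM in KO and 237 ± 82.5 CPM in WT and Jund 239 ± 32.5 CPM in KO and 239 ± 54.9 CPM in WT. Their fitted log2 fold changes were −0.0096 (SE 0.18) and −0.0015 (SE 0.16), and both have wide WT spreads. Atf3 had 580 ± 29.8 CPM in KO and 589 ± 24.6 CPM in WT, with a log2 fold change of −0.02 (SE 0.10).

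In the EGR genes, the sums of Egr1 and Egr2 differed by less than their spread. Egr1 averaged 345 ± 6.34 CPM in KO and 346 ± 44.3 CPM in WT, a log2 fold change of −0.0064 (SE 0.13), and Egr2 180 ± 42.8 CPM in KO and 189 ± 32.8 CPM in WT, a log2 fold change of −0.07 (SE 0.18). Egr3 had 141, 153 and 157 CPM in KO and 142, 61.5 and 92.6 CPM in WT. Its log2 fold change was 0.61 (SE 0.23, unadjusted p = 0.0125, edgeR adjusted p = 0.645). All 6 of its tested windows had a fold above 0, from 0.36 to 1.48 on the log2 scale, against 50.4% of all tested windows. Some of the 6 overlap and share tags, and all are part of the sum, so they are no separate evidence. Without WT replicate 1 the log2 fold change of the sum was 0.97 (edgeR adjusted p = 0.174). Without WT replicate 2 it was 0.36 (edgeR adjusted p = 0.897), so WT libraries set its size. Ier2 averaged 166 ± 31.2 CPM in KO and 195 ± 35.5 CPM in WT, a log2 fold change of −0.24 (SE 0.18) that was 0.05 without overlapping windows and ran from −0.35 (without WT replicate 1) to −0.096 (without KO replicate 2) with 1 library left out.

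Per window, 99 of the 171 windows passed the filter on low tags and 72 did not; no window of those 72 averaged above 7.29 CPM in KO or 8.16 CPM in WT. None of the 99 was called with edgeR, where 0.0595% of all 40370 tested windows were (0.0248% higher and 0.0347% lower in KO), and DESeq2 called none of the 99 either (0.168% of all windows). An unadjusted p under 0.05 was found in 7 of the 99 with edgeR (4.69% of all windows) and in 10 with DESeq2 (6.68% of all windows). Of the 7, 3 were higher in KO (2.19% of all windows) and 4 lower (2.5% of all windows), which is near the background. Adjusted p-values of the 99 lay between 0.971 and 1.00. The groups did not overlap in 13 of the 99 (10.9% of all windows), with KO above WT in 9 and below in 4, against 5.48% and 5.4% of all windows. Of those 9, 4 belonged to Jun, which had 11 tested windows. Among the 4, those centred 2297 and 2859 bp downstream overlap and share tags.

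**Figure D4:**
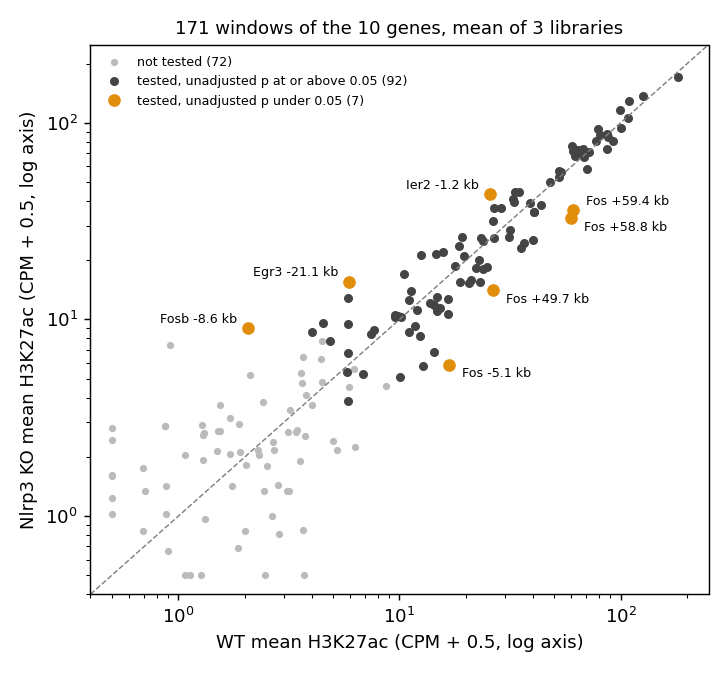
Mean H3K27ac in KO against mean H3K27ac in WT for the 171 windows (CPM + 0.5, log axes), with the dashed line of equality; grey points were too low to be tested and orange points had an unadjusted p under 0.05. The strongest windows lie close to the line, and the 7 orange windows spread to both sides of it.

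The 4 low-p windows with a lower mean in KO all lay around Fos. The smallest p belonged to the window 58782 bp downstream (chromosome 12, 85532172 to 85533172, intergenic), with 33.1, 13.4 and 50.004 CPM in KO and 48.3, 62.6 and 66.9 CPM in WT. Its log2 fold change was −0.89 (SE 0.34, unadjusted p = 0.0130, edgeR adjusted p = 0.971), and the KO library with 50.004 CPM reached into the WT range. The value was −1.36 without KO replicate 3 and −0.52 without KO replicate 2. The overlapping window at 59423 bp shares tags with it and had 35.3 ± 13.2 CPM in KO and 60.4 ± 18.9 CPM in WT. At 49702 bp downstream there were 13.5, 19.3 and 7.78 CPM in KO and 21.3, 31.02 and 25.7 CPM in WT, and 5056 bp upstream 5.52, 5.07 and 5.56 CPM in KO and 15.7, 25.3 and 7.81 CPM in WT; in both the groups did not overlap. The main Fos windows, 18432 bp upstream and at the start, had smaller fitted differences (log2 fold changes 0.06, SE 0.21, and −0.20, SE 0.41).

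The 3 low-p windows with a higher mean in KO lay near Fosb, Egr3 and Ier2. The Fosb window 8611 bp upstream had 7.52, 9.67 and 8.33 CPM in KO and 1.88, 0.574 and 2.23 CPM in WT, a log2 fold change of 2.40 (SE 0.99) that rests on 15, 21 and 15 tags in KO and 3, 1 and 4 in WT. In the Egr3 window 21098 bp upstream there were 9.03, 15.7 and 20.6 CPM in KO and 10.0, 2.87 and 3.35 CPM in WT, a log2 fold change of 1.48 (SE 0.65), or 2.25 without WT replicate 1. The Ier2 window 1207 bp upstream had a log2 fold change of 0.76 (SE 0.32). In each the edgeR adjusted p was 0.998.

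**Figure D5:**
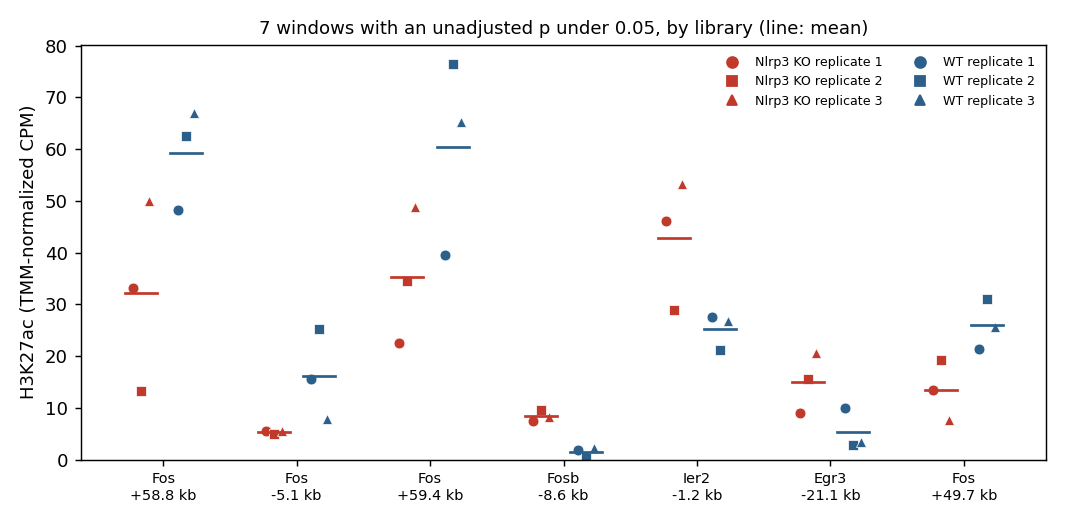
H3K27ac (TMM-normalized CPM) by library in the 7 windows with an unadjusted p under 0.05, KO left of WT, ordered by p from the left; lines are means of 3 libraries. The Fos windows are lower in KO, those of Fosb, Ier2 and Egr3 higher, and libraries of the 2 genotypes overlap in 3 of the 7.

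Summed over all members, the level was 3800, 3423 and 3788 CPM in KO and 3556, 3543 and 3863 CPM in WT, with a log2 ratio of 0.0063 between the means and overlapping groups. The share of the members' tags in promoter windows was 24.2 ± 0.711% in KO and 23.9 ± 0.236% in WT (SD, n = 3 each). Over all windows within 100 kb it was 38.7% in KO and 39.0% in WT, so by this 1 kb limit the members' share was lower in both genotypes. Strongly acetylated windows were centred just past the limit: Jund at 1023 bp, Junb at 1111 and 1169 bp, and Jun at 1127 and 1162 bp. With a limit of 2 kb they would count as promoter windows, so the members' share depends on where the limit is set. The share over all windows would move with the limit too. Whether the members' share would still be the lower one at 2 kb was not tested.

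Related genes gave no call either. In 6 lists of genes tied to the immediate early response, 122 genes were tested and edgeR called none in either direction (0.206% of all genes). DESeq2 called none either (0.313% of all genes). An unadjusted p under 0.05 with edgeR was found for 9, against 5.77% of all genes, with 3 of the 9 higher in KO and 6 lower. In all, 54 of the 122 had a fitted fold above 0. Among 21 AP-1 and related bZIP genes outside the members the median log2 fold change was −0.03, and the smallest p belonged to Atf5, a stress-response ATF gene (−0.77, SE 0.37, edgeR adjusted p = 0.865). Among 8 relatives and co-regulators of the EGR factors the median was −0.14 and Klf10 had −0.27 (SE 0.24). Among 19 upstream regulators, which carry the kinase signal to these promoters, it was −0.06 and Rps6ka1, a ribosomal S6 kinase gene, had −0.33 (SE 0.12). The summed level of this list was 2358 to 2498 CPM in KO and 2511 to 2589 CPM in WT, so all KO libraries lay below all WT libraries. The sum was not tested, and groups that did not overlap were also found for 11.4% of all single genes. Of the 19 genes, 9 had a fitted fold above 0. In the other lists of related genes the summed levels of the genotypes overlapped. Among 25 feedback regulators the median was −0.03 and Ier5l had 0.90 (SE 0.33), and among 23 other immediate early genes it was 0.04 and the clock gene Per1 had −0.29 (SE 0.09, edgeR adjusted p = 0.508).

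Heat shock and cytokine genes that dissociated microglia switch on were looked at in the same way. Of 26 tested, edgeR and DESeq2 called none, 1 had an unadjusted p under 0.05 with edgeR (5.77% of all genes), and the median log2 fold change was −0.06. That gene was Il6, with −0.41 (SE 0.17, edgeR adjusted p = 0.780). The median ratio of their promoters to input was 15.9 in KO and 13.5 in WT. All libraries came from dissociated cells, so the part of dissociation in the levels of H3K27ac at these genes was not tested.

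Markers of the selected cells and of others were read beside these values. All 20 microglia markers had a window, with promoters at a median ratio to input of 15.04 in KO and 13.2 in WT, and a summed level of 5945 to 6229 CPM in KO and 5855 to 6673 CPM in WT. Of 13 neuron markers 6 had a window, summing to 40.5 to 63.9 CPM in KO and 36.8 to 59.0 CPM in WT. Of 10 astrocyte markers 7 had one, with 63.7 to 127 CPM in KO and 49.1 to 92.2 CPM in WT. The sums were 371 to 419 CPM in KO and 389 to 428 CPM in WT for oligodendrocyte markers (9 of 12 with a window), 508 to 646 CPM in KO and 504 to 540 CPM in WT for endothelial and mural markers (8 of 12), 105 to 153 CPM in KO and 104 to 141 CPM in WT for border macrophage markers (9 of 10), 153 to 264 CPM in KO and 154 to 231 CPM in WT for monocyte and neutrophil markers (7 of 13), and 206 to 263 CPM in KO and 228 to 240 CPM in WT for lymphocyte markers (6 of 12). The ranges of the genotypes overlapped in each of these marker lists. In the 8 marker lists edgeR and DESeq2 called no gene. With edgeR, unadjusted p-values under 0.05 (5.77% of all genes) were found for C1qb, Gpr34 and Selplg among microglia markers and Cd79b among lymphocyte markers. The smallest-p genes of the 8 lists were C1qb (−0.34), Snap25 (0.90), S100b (0.27), Cnp (−0.40), Cldn5 (−0.92), Cd163 (0.98), Vcan (0.92) and Cd79b (−1.25), as log2 fold changes. The part of other cells in the members' values was not tested; in bulk chromatin, fewer cells of a type and less acetylation per cell cannot be told apart.

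The members' mean profile over the 6 H3K27ac libraries, each gene centred on its own log2 mean, ran at 0.08, −0.08 and 0.07 in KO replicates 1, 2 and 3 and at −0.04, −0.13 and 0.10 in WT replicates 1, 2 and 3. Both genotypes thus held low and high libraries. The 3 other genes at or above the median abundance with the most similar profile were Cflar, Slc45a1 and Ucp1, with root mean square differences of 0.02, 0.03 and 0.03 on the log2 scale over 6 libraries. They were picked for the smallest differences, so their closeness follows from the search, and shared regulation was not tested.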

How the data were processed

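Tag counts came from a deposited table of raw counts per window; per the file headers, the authors counted tags with HOMER's annotatePeaks.pl in windows of 1000 bp around merged sites of a WT and a KO list, and gave each window its nearest start. Per the submitters' processing notes, the build was mm10 and the tools included DESeq2. A second deposited table with scaled tags was not used. Counts were tested with edgeR 4.0.16 (R 4.3.3; TMM, filterByExpr, quasi-likelihood test, Benjamini-Hochberg threshold 0.05) across all windows, or all genes after summing, and DESeq2 1.42.0 was the alternative. H3K27ac was set against input with header totals as library sizes. Scripts were tested on simulated data. The members and gene lists were chosen with earlier results of these data known. For each member the window nearest the start, the strongest distal window and the window of smallest p were named, and from each list the gene of smallest p; others were chosen after their values were seen. Median depth was 12 to 16 tags per H3K27ac window. The alternatives were other scalings, filters, distance limits and left-out libraries.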

Additional observations from a re-analysis of the deposited data

How the results depend on the processing

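No member was called between KO and WT under any alternative run. The count over all windows (24) became 68 with DESeq2, 68 without the filter and 10 to 29 with 1 library left out (13 without KO replicate 1, 11 without KO replicate 2, 12 without WT replicate 1 and 10 without WT replicate 2). The count over all genes (25) became 38 with DESeq2, 16 with library totals, 48 without the filter, 1 with windows within 1 kb, and 8 to 18 with 1 library left out (15 without KO replicate 1, 14 without KO replicate 3, 8 without WT replicate 1 and 12 without WT replicate 2). With the replicate number as a block (replicate block) it was 15. The same-numbered KO and WT libraries correlated at 0.0032, −0.00062 and 0.0026, and differently numbered ones at −0.0097 to 0.0077. With so few tags per window, these values cannot tell whether same-numbered libraries were prepared together. Fitted folds near 0 changed sign, all uncalled: Jund 0.0024 without the filter; Fosb 0.042, Jund 0.014 and Egr1 0.00042 with the replicate block; Atf3 0.0498 and Egr1 0.27 within 1 kb; Fosb 0.017, Jun −0.0094, Jund 0.031, Atf3 0.044 and Ier2 0.051 without overlapping windows. With 1 library left out, log2 fold changes ran from −0.055 to 0.0175 for Atf3, −0.076 to 0.11 for Egr1, −0.29 to 0.040 for Egr2, −0.24 to 0.26 for Fosb, −0.0062 to 0.090 for Junb and −0.13 to 0.18 for Jund. In the same way windows ran from −0.59 to 0.046 (Fos, 8 bp), −0.040 to 0.13 (Fos, 18432 bp upstream), −0.089 to 0.48 (Egr2, 1695 bp upstream), −0.40 to 0.087 (Atf3, 192 bp upstream), −0.21 to 0.40 (Fosb, 20 bp), −0.42 to 0.17 (Fosb, 8752 bp) and −0.50 to 0.0040 (Jund, 1023 bp). Without WT replicate 1, which lacks tags at the Y-linked promoters, the Fos window at 8 bp stood at −0.088, the Fos window 18432 bp upstream at 0.11, the Egr1 window 229 bp upstream at 0.88 and the Egr3 window 20307 bp upstream at 1.09. The summed level ran from −0.02 to 0.05 and the promoter share difference from 0.049 to 0.73 points. Over input, TMM factors gave 3389 windows and 23 member windows in KO and 2866 and 21 in WT, since TMM sets the bulk of windows to no change; leaving out a replicate gave 84 to 90 member windows in KO and 83 to 84 in WT. Few tags per window limit what could be detected: fold changes at low windows rest on single-digit counts, and a missed threshold does not show equal levels.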
